A study of Mus musculus with 8 samples.

Results

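Cholesterol synthesis and sterol sensing were followed through 31 mouse genes, taken by symbol from the 55450 gene identifiers of the tables. Of these, 8 act in the mevalonate steps, 11 turn squalene into cholesterol, 6 belong to sterol sensing and 6 to sterol transport, storage and export. All 31 were expressed above the filter on low counts, among 13303 genes that were tested. RNA came from 8 livers of mice that were 10 weeks old when feeding began and carried floxed Cebpa alleles. The 4 controls (Cre-) kept the gene, and the 4 knockouts (Cre+) lacked it in hepatocytes. The gene encodes the transcription factor C/EBP alpha, which acts in mature hepatocytes. The driver of the Cre is not named in the sources used here. Feeding was the same in both groups: 5 days on liquid control diet, then 4 weeks on liquid diet that held 5% (vol/vol) ethanol. Every comparison is thus between genotypes under ethanol, and none measures a response to ethanol. Nothing in the labels says whether livers shared a litter or a day, so p-values measure the spread between these 8 livers.

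Levels of a gene across livers are given in CPM (read counts scaled to library size) with TMM factors, and the levels of different genes are ranked in the authors' TPM, which also correct for transcript length. The libraries held between 21048350 expected counts (control 2) and 28148744 (knockout 4), and 1 count was worth 0.0341 to 0.0485 CPM. Cebpa was at 319.9, 263.6, 269.3 and 320.3 CPM in controls 1 to 4 and at 5.44, 9.26, 7.31 and 6.24 CPM in knockouts 1 to 4, so all 8 livers followed their labels (two-sided exact permutation p = 0.0286, the smallest that 70 arrangements of 4 against 4 allow). The 5 hepatocyte markers found in the tables summed to between 85251 and 121080 CPM in the controls and to between 108754 and 121490 CPM in the knockouts. Cholangiocyte markers summed to between 25.6 and 63.8 CPM in the controls and to between 115 and 363 CPM in the knockouts, and macrophage and Kupffer cell markers to 165 to 345 and 265 to 442 CPM. Stellate cell markers summed to 117 to 227 CPM and 202 to 415 CPM, and endothelial markers to 108 to 134 CPM and 127 to 172 CPM. All tested markers of these 4 non-hepatocyte lists had log2 fold changes above 0 (5 cholangiocyte, 10 macrophage, 7 stellate and 6 endothelial genes), where 49.3% of all tested genes lay below 0. Of these markers edgeR called 3 higher, the cholangiocyte genes Krt19, Epcam and Spp1, where it called 0.849% of all tested genes higher.

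Hepatocytes build cholesterol from acetyl-CoA. The early steps make mevalonate and then isoprenoid units, which are joined into farnesyl diphosphate and squalene. Squalene is oxidised and closed into lanosterol, and a series of demethylations, isomerisations and reductions turns lanosterol into cholesterol. When sterols in the endoplasmic reticulum run low, SCAP carries the factor SREBP2 (gene Srebf2) to the Golgi apparatus, where it is cut and freed to switch on the genes of synthesis. INSIG proteins hold SCAP back when sterols are plentiful. The nuclear receptors LXR alpha and LXR beta (Nr1h3 and Nr1h2) sense oxidised sterols and switch on genes of sterol disposal.

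SREBP2 acts together with the factors NF-Y and Sp1, whose boxes are known from genes under SREBP2. Promoter sequences of 3 synthesis enzymes that carry such boxes, and whose levels moved closely together among livers of a group, are shown as examples. They are the 250 bases before the start of Hmgcs1 (chr13:119690101-119690350, plus strand), Mvd (chr8:122443423-122443672, minus strand) and Mvk (chr5:114444019-114444268, plus strand), from RefSeq on GRCm38.p6, written 5′ to 3′ on the strand of the gene. Capitals mark 3 motifs on either strand. The SREBP site was searched as TCACNCCAC. The NF-Y box was searched as CCAAT. The Sp1 box was searched as GGGCGG. No marked motifs overlap here.
Hmgcs1: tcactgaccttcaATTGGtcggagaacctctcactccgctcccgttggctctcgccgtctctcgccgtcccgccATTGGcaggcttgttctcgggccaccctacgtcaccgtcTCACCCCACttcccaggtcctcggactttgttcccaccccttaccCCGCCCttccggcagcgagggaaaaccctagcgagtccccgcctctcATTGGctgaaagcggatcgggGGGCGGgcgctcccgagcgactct
Mvd: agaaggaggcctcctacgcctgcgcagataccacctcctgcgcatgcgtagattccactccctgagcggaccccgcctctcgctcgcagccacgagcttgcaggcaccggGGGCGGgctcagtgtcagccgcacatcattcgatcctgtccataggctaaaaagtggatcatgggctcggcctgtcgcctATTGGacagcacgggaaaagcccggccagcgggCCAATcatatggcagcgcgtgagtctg
Mvk: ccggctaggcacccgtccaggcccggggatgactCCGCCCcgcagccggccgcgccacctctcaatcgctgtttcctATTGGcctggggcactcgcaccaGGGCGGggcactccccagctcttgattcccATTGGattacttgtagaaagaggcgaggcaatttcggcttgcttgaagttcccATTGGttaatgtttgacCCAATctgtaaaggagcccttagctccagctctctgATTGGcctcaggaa

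Hmgcs1 held the SREBP site 137 bases before its start and NF-Y boxes at 237, 176 and 45 bases. Mvk held 5 NF-Y boxes and Mvd 2, and neither held the SREBP site. Dhcr7, Lss and Msmo1, which followed Hmgcs1 more closely than Mvk did, also held NF-Y and Sp1 boxes and are not shown. RefSeq windows of 250 bases before to 50 after a start were at hand for 25 of the 31 genes. They were not at hand for Fdps, Fdft1, Sqle, Npc1, Stard4 and Soat2. On both strands of these windows, an NF-Y box was found in 15 of the 19 promoters of synthesis enzymes (78.9%) and in 37.4% of all 32851 promoters. An Sp1 box was found in 15 of the 19 (78.9%) and in 35.7% of all promoters. These 19 promoters belong to 16 enzyme genes, since some genes have several starts. By gene, 15 of the 16 held an NF-Y box and 14 an Sp1 box. The strict SREBP letters were found in 1 of the 19, that of Hmgcs1, and in 1.24% of all promoters. The C/EBP letters TTNNGCAA, searched because C/EBP alpha was deleted, were found in 2 of the 19 (10.5%) and in 10.8% of all promoters. Over all 31 promoters of the 25 genes, 21 held an NF-Y box and 21 an Sp1 box. Ggps1, whose within-group correlation with Hmgcs1 was -0.60, held 3 NF-Y boxes in the 250 bases before its start. Acat2, with a correlation of 0.865, held none there. Whether the boxes go with the shared levels was not tested. A match is a run of letters and not a measured binding site.

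None of the 31 genes passed the test between genotypes. In edgeR's quasi-likelihood test with Benjamini-Hochberg adjustment over all 13303 genes, 0 of the 31 had an adjusted p below 0.05, where 274 of all genes (2.06%) did, 0.849% higher and 1.21% lower in knockouts. With library size alone in place of TMM, 161 genes were called higher and 115 lower, against 113 and 161 here, and limma on TPM called 151 and 86. The smallest adjusted p was 0.105, of Npc1. At an unadjusted p below 0.05 there were 4 of 31 (12.9%), the genes Nr1h2, Nr1h3, Mylip and Npc1, beside 18.5% of all genes. Of these 4, 1 was higher, beside 9.61% of all genes, and 3 were lower, beside 8.9%. DESeq2 called 1 of the 31, Npc1, where it called 5.54% of 15115 genes. The log2 fold changes, knockout over control, lay between -0.54 and 0.44, with 22 of 31 below 0 and a median of -0.12, beside 49.3% of all genes below 0 and a median of 0.00. The tally of signs depended on scaling and livers: 18 of 31 lay below 0 with library size alone, 14 with limma on log2(TPM + 1) and 11 without control 2 and knockout 4, with 17 to 25 when 1 liver was left out. In bulk liver, fewer cells of a type and less RNA per cell cannot be told apart.

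**Figure D1:**
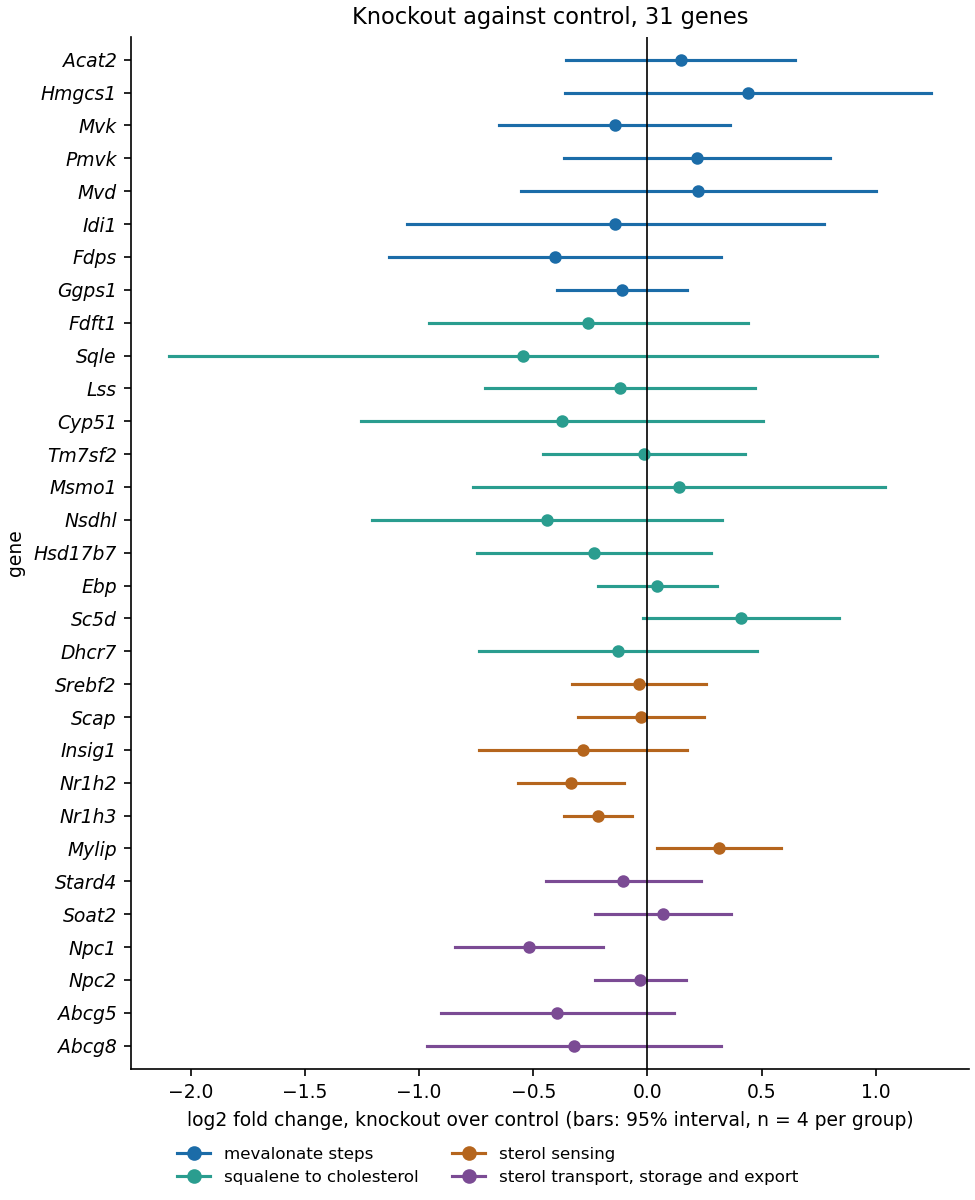
Log2 fold change of each of the 31 genes, knockout over control, on the horizontal axis, one gene per row. Points are edgeR estimates and bars their 95% intervals (n = 4 livers per group), and colours give the role in the pathway. Most bars cross 0, and those of Nr1h2, Nr1h3, Mylip and Npc1 lie to one side of it, although none of these passed the test after adjustment.

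The mevalonate steps split evenly in direction, with 4 of 8 genes above 0 and a median log2 fold change of 0.02. Hmgcs1, the synthase that makes HMG-CoA, the precursor of mevalonate, was at 96.4, 151.9, 106.3 and 176.6 CPM in controls 1 to 4 and at 265.5, 230.7, 128.4 and 95.6 CPM in knockouts 1 to 4. Knockouts 1 and 2 stood above every control and knockout 4 just below every control, so the knockouts enclosed the controls. Hmgcs1 thus had a log2 fold change of 0.44 (SE 0.35, edgeR adjusted p = 0.538) and a 95% interval from 0.778-fold to 2.36-fold of the control level.

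The other mevalonate genes overlapped between groups as well. Acat2 (cytosolic thiolase, which joins acetyl-CoA) had a log2 fold change of 0.15. Pmvk and Mvd, the kinase and decarboxylase that follow mevalonate kinase, had 0.22 each, and Mvk, mevalonate kinase itself, had -0.14. Idi1, the isomerase of the isoprenoid units, had -0.14, Fdps, which joins them into farnesyl diphosphate, -0.41, and Ggps1, which makes geranylgeranyl diphosphate for other uses, -0.11. The edgeR adjusted p of the 8 lay between 0.534 and 0.885.

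From squalene to cholesterol, 8 of 11 genes lay below 0, with a median log2 fold change of -0.13. On log2(TPM + 1) 5 of 11 did, and without control 2 and knockout 4 3 of 11, with medians of 0.02 and 0.11. Sqle, squalene epoxidase and a rate-limiting step of the pathway, was at 8.17, 46.8, 21.02 and 57.1 CPM in controls 1 to 4 and at 26.3, 38.9, 9.96 and 16.0 CPM in knockouts 1 to 4. The control livers alone spanned a 6.99-fold range and enclosed all 4 knockouts. Sqle was therefore compatible with a wide span of differences: it had a log2 fold change of -0.54 (SE 0.66, edgeR adjusted p = 0.696) and a 95% interval from 0.234-fold to 2.01-fold.

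Nsdhl, a sterol dehydrogenase of the demethylation steps encoded on the X chromosome, was at 35.5, 85.8, 60.4 and 96.5 CPM in controls and at 68.8, 59.7, 40.7 and 35.8 CPM in knockouts. Every knockout lay inside the range of the controls (log2 fold change -0.44, SE 0.33, edgeR adjusted p = 0.517). Sc5d, the desaturase of a late step, was at 328.1, 339.0, 294.1 and 344.0 CPM in controls and at 598.3, 480.5, 359.1 and 298.0 CPM in knockouts. It was singled out after its values were seen, since 3 of 4 knockouts exceeded all controls. Its log2 fold change was 0.41 (SE 0.19), which did not pass the test (edgeR adjusted p = 0.289), and its 95% interval ran from 0.987-fold to 1.79-fold. Of all 19 enzymes, none had an unadjusted p below 0.05.

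The remaining enzymes of this branch also overlapped between groups. The log2 fold change was -0.26 for Fdft1 (squalene synthase), -0.12 for Lss (lanosterol synthase) and -0.37 for Cyp51 (lanosterol demethylase). It was -0.01 for Tm7sf2 (a sterol reductase), 0.14 for Msmo1 (a methyl sterol oxidase), -0.23 for Hsd17b7 (a keto-sterol reductase), 0.04 for Ebp (a sterol isomerase) and -0.13 for Dhcr7, the reductase that yields cholesterol. Ebp had the narrowest interval of the 19 enzymes on the log scale, from 0.861-fold to 1.23-fold.

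Summed over the 19 enzymes, TPM was 809, 1313, 1048 and 1489 in controls 1 to 4 and 1628, 1517, 1040 and 914 in knockouts 1 to 4. The means were 1165 ± 298 in controls and 1275 ± 350 in knockouts (SD, n = 4), a difference smaller than either SD. Among single enzymes, Fdps had the highest control level, 216 ± 72.0 TPM, followed by Sc5d at 175 ± 8.07 TPM, and Mvd the lowest, 4.89 ± 1.58 TPM (SD, n = 4).

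For Srebf2 and Scap the intervals of the difference between genotypes were narrow and lay around no change, and that of Insig1 was wider. Srebf2 was at 42.2, 50.5, 52.5 and 57.9 CPM in controls and at 59.6, 50.4, 48.1 and 39.8 CPM in knockouts. The ranges of the groups nearly coincided, and its 95% interval ran from 0.796-fold to 1.19-fold (log2 fold change -0.04, SE 0.13, edgeR adjusted p = 0.909). Scap, the escort of SREBP2, had an interval from 0.81-fold to 1.19-fold. Insig1, which retains SCAP and is itself an SREBP target, was at 281.0, 349.9, 233.6 and 190.2 CPM in controls and at 280.5, 190.9, 221.8 and 173.9 CPM in knockouts. Only knockout 4 fell below the controls' range, and the interval of Insig1 ran from 0.6-fold to 1.13-fold (log2 fold change -0.28, SE 0.20, edgeR adjusted p = 0.492).

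The groups of 3 genes did not overlap in CPM, and the differences were small. Nr1h3 and Nr1h2 were lower in knockouts, and Mylip was higher. The groups of Abcg5 and Abcg8, which are LXR targets as Mylip is, overlapped. Genes without overlap were thus no more frequent among the 31 (9.68%) than among all tested genes (11.5%). Of the 3, 2 were lower in knockouts (5.92% of all genes) and 1 higher (5.54%). Nr1h3, which encodes LXR alpha, was at 67.7, 62.6, 70.6 and 65.3 CPM in controls and at 55.3, 57.3, 58.6 and 57.9 CPM in knockouts. Each knockout lay below each control, with a log2 fold change of -0.22 (SE 0.07, edgeR adjusted p = 0.130). On the deposited TPM scale the groups overlapped, with 51.5, 51.5, 57.0 and 51.1 in controls and 46.8, 51.6, 48.5 and 50.7 in knockouts, and the log2 difference of Nr1h3 was -0.09 (limma adjusted p = 0.519).

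Nr1h2, which encodes LXR beta, was at 21.3, 29.5, 24.7 and 23.0 CPM in controls and at 19.8, 18.8, 20.0 and 19.5 CPM in knockouts. The knockouts sat close together below all controls (log2 fold change -0.33, SE 0.10, edgeR adjusted p = 0.133), but in TPM control 1 lay within their range. Mylip, an LXR target that encodes the ubiquitin ligase IDOL and so limits lipoprotein uptake, was at 6.72, 8.54, 8.38 and 9.45 CPM in controls and at 9.97, 10.9, 10.8 and 9.48 CPM in knockouts. Knockout 4 was only just above control 4, with a log2 fold change of 0.31 (SE 0.12, edgeR adjusted p = 0.210). The signs of these 3 genes held in all 18 alternative settings, and none of the 3 passed the test in any of them. The full values of Nr1h2 and Mylip are shown because of this separation, seen in the data. The part of the markers of other cell types in these differences was not tested.

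**Figure D2:**
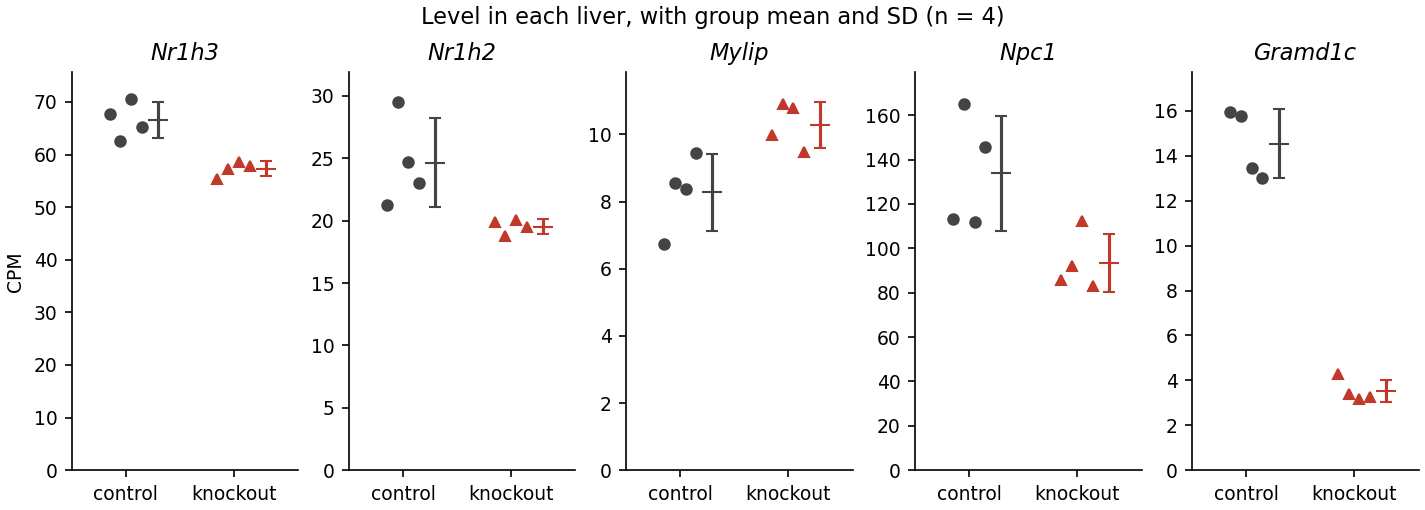
CPM of Nr1h3, Nr1h2, Mylip, Npc1 and Gramd1c in each liver, with the mean and SD of each group beside the points (n = 4). Each vertical axis starts at 0 and has its own scale. Only Gramd1c passed the test between genotypes, and knockout 3 of Npc1 lies level with the lower controls.

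In sterol transport and storage, Npc1 had the smallest adjusted p of all 31 genes. It encodes the lysosomal membrane protein that releases cholesterol taken up with lipoproteins. Npc1 was at 113.4, 165.0, 111.7 and 145.6 CPM in controls and at 85.8, 92.2, 112.5 and 83.1 CPM in knockouts. Knockout 3 was as high as controls 1 and 3, while the other knockouts lay below all controls. The log2 fold change was -0.52 (SE 0.15), with an interval from 0.557-fold to 0.873-fold, and did not pass edgeR's test (adjusted p = 0.105). DESeq2 gave -0.53 and called it (adjusted p = 0.0283).

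Npc2, the soluble lysosomal partner of NPC1, had a log2 fold change of -0.03 and an interval from 0.853-fold to 1.12-fold. Stard4, a carrier of sterols between membranes, had -0.10, and Soat2, which esterifies cholesterol for storage and secretion, 0.07. Both overlapped between groups.

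Abcg5 and Abcg8 encode the subunits of the transporter that sends sterols into bile, and both are known LXR targets. Abcg5 was at 79.8, 92.0, 48.8 and 67.4 CPM in controls and at 59.3, 57.1, 66.5 and 36.4 CPM in knockouts (log2 fold change -0.39, SE 0.23, edgeR adjusted p = 0.388). Abcg8 was at 104.4, 142.3, 62.2 and 110.1 CPM in controls and at 94.2, 89.5, 101.2 and 50.4 CPM in knockouts (log2 fold change -0.32, SE 0.28, edgeR adjusted p = 0.577). In both genes control 3 and knockout 4 were the low livers of their groups, and the groups overlapped.

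The deviations of Abcg5 and Abcg8 from their group means went together over the 8 livers (Pearson r = 0.971, permutation p = 0.00694, Spearman rho = 0.833, permutation p = 0.0174), and r was 0.776 without knockout 4 and control 3. This relation was added after the values were seen, and it is 1 relation with no adjustment. The genes lie on opposite strands of chromosome 17. RefSeq gives Abcg8 2 starts: 1 lies 110 bases from the start of Abcg5, and the other, at 84676302, lies inside Abcg5 and is also the start of Abcg8 in GENCODE M21. The 250 bases before this neighbouring start of Abcg8 held 2 NF-Y boxes, 175 and 114 bases before it. Both lie beyond the stretch shown, and the nearer box ends at its edge. The stretch between the neighbouring starts (chr17:84683012-84683120, GRCm38.p6, plus strand, 109 bases) held none of the 4 motifs and is therefore all in lower case.
Abcg5 to Abcg8: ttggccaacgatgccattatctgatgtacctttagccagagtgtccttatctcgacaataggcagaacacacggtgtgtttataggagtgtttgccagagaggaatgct

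Exons of Abcg5 and Abcg8 overlap on opposite strands in GENCODE M21. The strand setting of the counting is not given in the sources used here. Expected counts of both genes were whole in every liver, so no split of reads between them was seen. The part of the overlap in their relation was not tested.

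The synthesis enzymes varied widely between livers of the same genotype, and they did so together. Within a group, the SD of log2 CPM was 1.08 for Sqle, above 98.8% of tested genes, and its median over the 19 enzymes was 0.44, beside 0.21 over all tested genes. Of the 19, 17 lay above the median of all genes, with Ebp and Ggps1 below it. Nr1h3 was at the other end, with an SD of 0.06 and at the percentile 2.03 of all genes.

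The same livers were high or low for most enzymes. Among controls, 14 of 19 enzymes were lowest in control 1 and the other 5 in control 3, while 16 were highest in control 4 and 3 in control 2. Among knockouts, 13 were lowest in knockout 4, and 14 were highest in knockout 1. Mean log2 CPM over the enzymes was 5.35, 6.17, 5.70 and 6.35 in controls 1 to 4 and 6.24, 6.09, 5.62 and 5.39 in knockouts 1 to 4. Each genotype thus had 2 livers between 6.09 and 6.35 and 2 livers between 5.35 and 5.70.

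**Figure D3:**
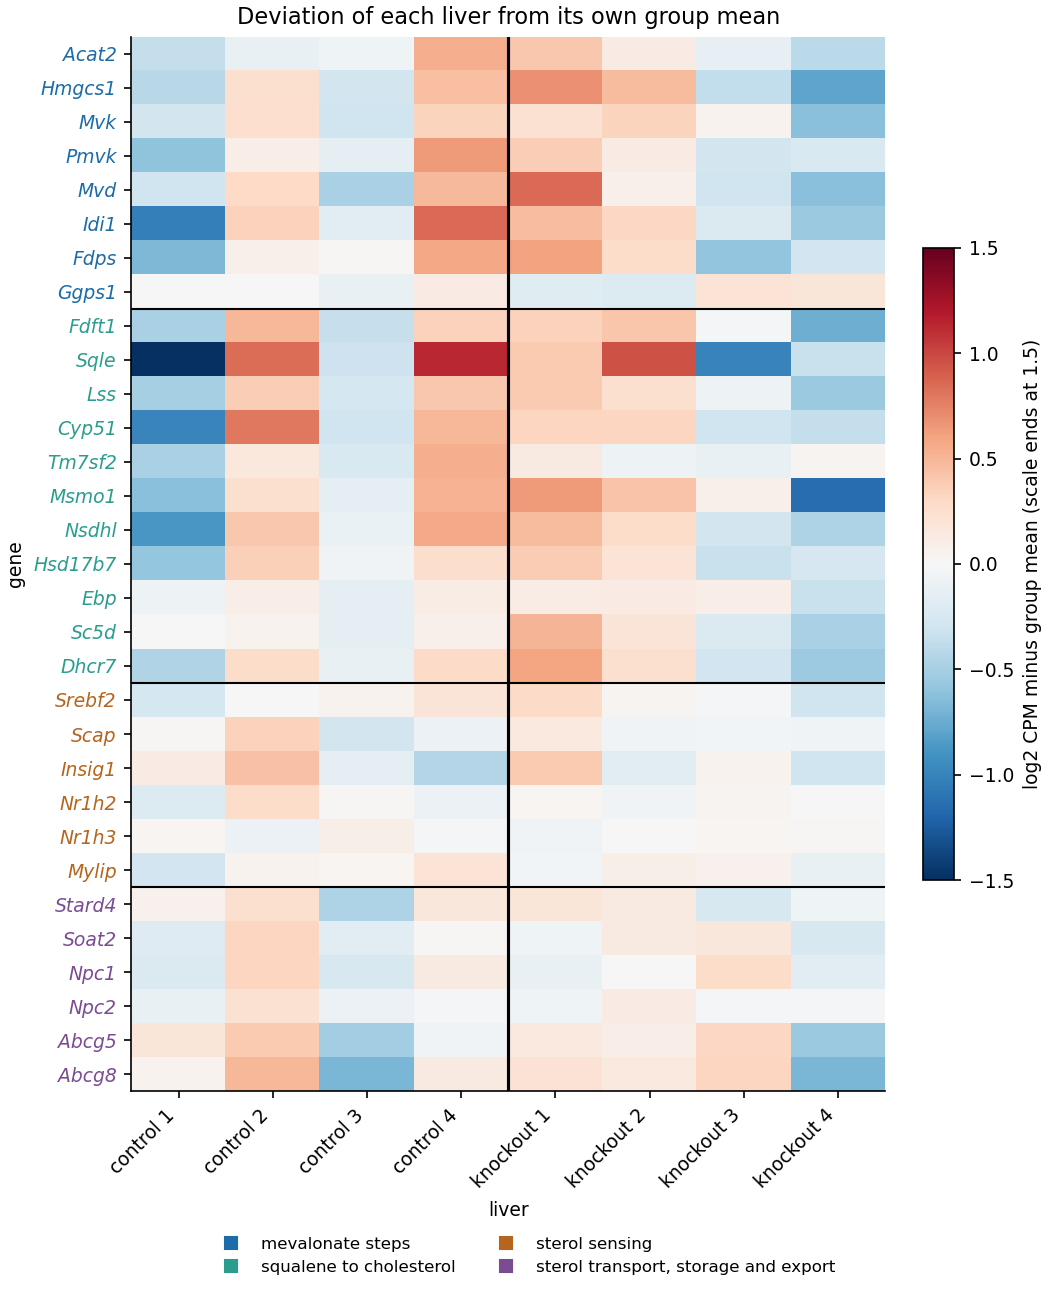
Deviation of each liver from the mean of its own group in log2 CPM, with genes in rows by role and the 8 livers in columns. Red is above the group mean and blue below, and the colour scale ends at 1.5. Most rows of synthesis enzymes, though not Ggps1, Tm7sf2 and Sc5d in full, show low control 1 and knockout 4 and high control 4 and knockout 1, and most sensing and transport rows are paler.

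The depth and cell-type markers of each liver are given beside this pattern. Among knockouts the deepest library, knockout 4, had the lowest enzyme mean, while control 4, the deepest control with 24119641 expected counts, had the highest. Endothelial marker sums were 108, 134, 123 and 133 CPM in controls 1 to 4, low in control 1 and high in controls 2 and 4 as the enzymes were. In knockouts 1 to 4 they were 127, 172, 157 and 144 CPM, lowest in knockout 1, where the enzymes were highest. In the same order of livers, macrophage marker sums were 181, 345, 302 and 165 CPM and then 265, 442, 397 and 366 CPM. Stellate marker sums were 162, 117, 227 and 207 CPM and then 220, 415, 202 and 217 CPM, and cholangiocyte marker sums 41.7, 63.8, 25.6 and 27.1 CPM and then 203, 363, 115 and 197 CPM. Knockout 2 was the highest knockout in all of these non-hepatocyte lists. Its mean log2 CPM of the enzymes, 6.09, lay below only that of knockout 1, 6.24. The hepatocyte marker sum was lowest in control 2 (85251 CPM) and highest in knockout 3 (121490 CPM). The part of depth and cell composition in this pattern was not tested.

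Hmgcs1 served as the reference for the shared pattern, with 30 relations computed as correlations of the deviations from the group mean over 8 livers. Dhcr7 followed it most closely (r = 0.973, permutation p = 0.00521, rho = 0.929, permutation p = 0.00347), and only 1 other of 13302 genes correlated more strongly. Lss had r = 0.932 (permutation p = 0.00174, rho = 0.857), Mvd r = 0.926 (permutation p = 0.0122, rho = 0.857) and Msmo1 r = 0.925 (permutation p = 0.00174, rho = 0.952). The value 0.00174 is the smallest that the 576 arrangements of livers within groups can give. In these genes, livers rich in the message for the start of the pathway were rich in those for its later steps.

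Of the 30 genes, 15 reached r of at least 0.8 (50.0%), beside 1.77% of all tested genes, and 10 were among the 100 genes with the highest r. Among the 18 other enzymes 14 did so, with a median r of 0.860, where the median of all genes was 0.01. At an unadjusted permutation p below 0.05 were 17 of the 30, 16 of them enzymes, beside 3.87% of all genes. Adjusted over the 30 relations, 16 passed for Pearson's r and 11 for Spearman's rho. That number fell to 0 for Pearson's r without control 4, without knockout 1 or without knockout 2, and to between 7 and 10 without any other liver, where fewer arrangements are possible; the median r of the enzymes stayed between 0.838 and 0.898. Adjusted over all 13302 genes none passed, and the smallest adjusted p was 0.98, at a smallest possible raw p of 0.00174. Without knockouts 4 and 1, whose Hmgcs1 deviations lay farthest from the median, the median r of the enzymes was 0.887 and 14 of 18 again had r of at least 0.8, beside 4.14% of all genes. All genes of a liver share its library and scaling factor, and the 31 genes were chosen with earlier results of these data known.

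**Figure D4:**
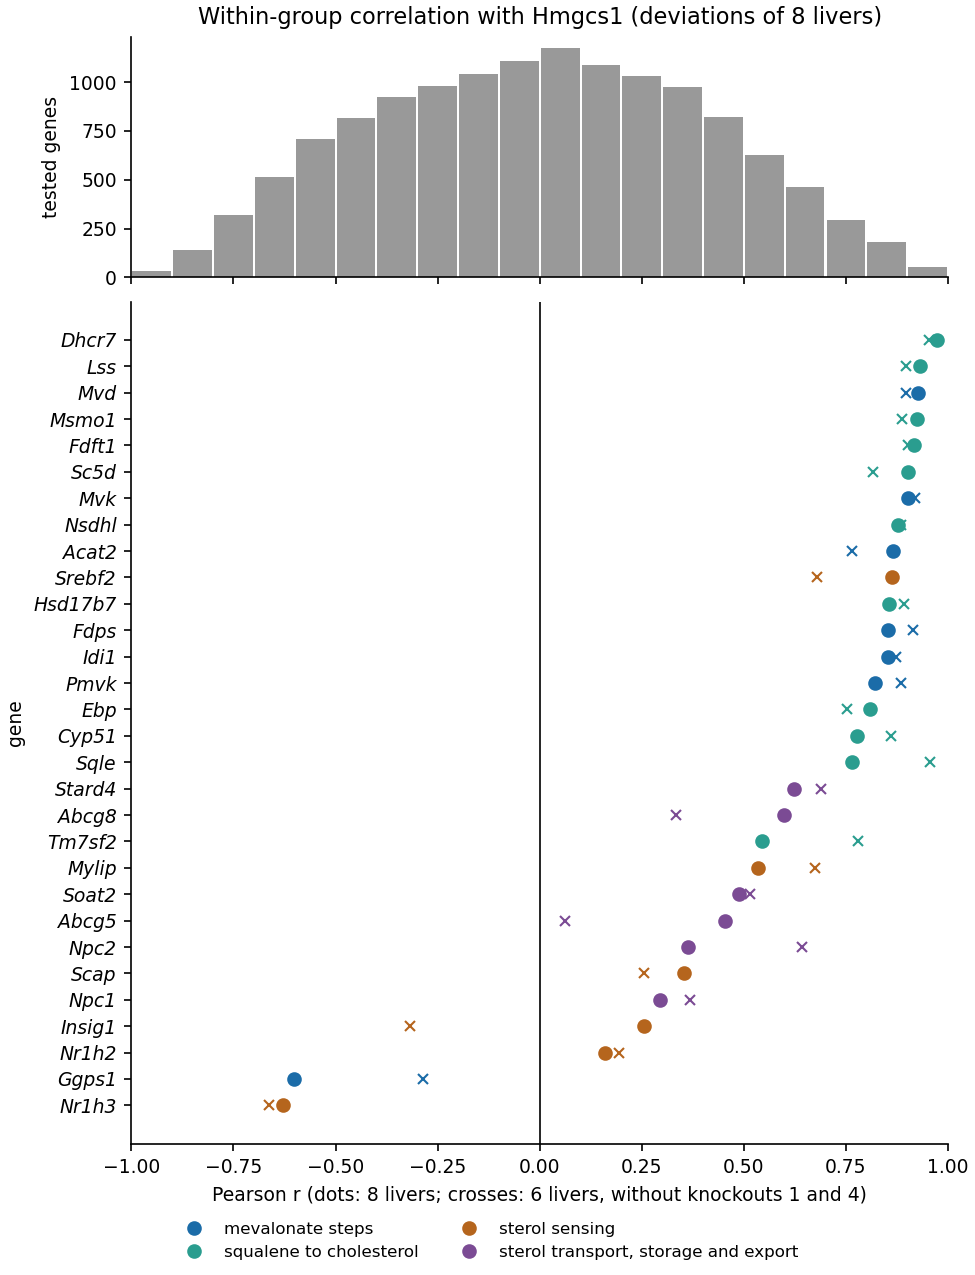
Pearson r of each gene with Hmgcs1, from deviations of log2 CPM from the group mean. Dots use 8 livers and crosses 6, without knockouts 1 and 4, and the histogram above gives the r of all other tested genes. Most synthesis enzymes sit above 0.8, at the thin right end of the histogram.

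The pattern reached through the whole pathway. Fdft1 (r = 0.916), Sc5d and Mvk (both 0.902), Nsdhl (0.876), Acat2 (0.865), Hsd17b7 (0.856), Fdps (0.853), Idi1 (0.852), Pmvk (0.822) and Ebp (0.809) followed Hmgcs1, and Cyp51 (0.776) came close. Sqle had r = 0.765 (permutation p = 0.0365, rho = 0.762) over all livers and 0.956 without knockouts 4 and 1. Tm7sf2 had 0.545, with 0.984 over the 4 controls and 0.269 over the 4 knockouts. Ggps1, whose product leaves the path to cholesterol, had -0.60, with 0.709 over the controls, -0.94 over the knockouts and -0.29 without knockouts 4 and 1. The differences between the groups were not tested. Over all 171 pairs of the 19 enzymes, 154 correlations were positive, 89 were at least 0.8 (52.0%) and their median was 0.804.

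Among the sensors, Srebf2 went with the enzymes (r = 0.863, permutation p = 0.00868, rho = 0.881), with r = 0.679 without knockouts 4 and 1. For Insig1 r was 0.254 (permutation p = 0.550, rho = 0.143), and it was -0.32 without the same livers. Within controls alone, Insig1 was highest in control 2 and lowest in control 4, both high livers for the enzymes (r = -0.23 over these 4). Within knockouts it was highest in knockout 1 and lowest in knockout 4, as Hmgcs1 was (r = 0.644 over these 4). Scap had r = 0.352, Nr1h2 0.160, Mylip 0.535 and Nr1h3 -0.63. In the transport group r was 0.624 for Stard4, 0.597 for Abcg8, 0.453 for Abcg5, 0.488 for Soat2, 0.363 for Npc2 and 0.294 for Npc1, none with an unadjusted permutation p below 0.05.

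**Figure D5:**
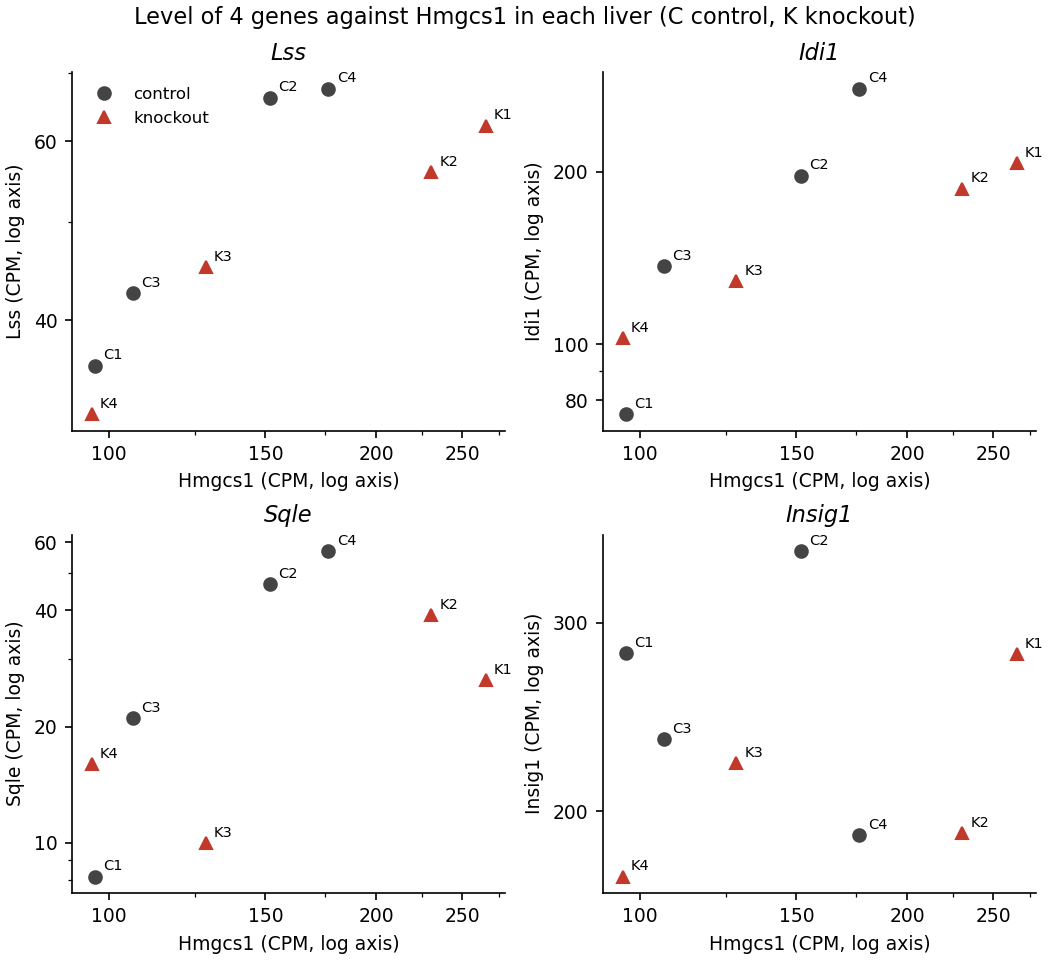
CPM of Lss, Idi1, Sqle and Insig1 (vertical axes) against CPM of Hmgcs1 (horizontal axes) in the 8 livers, all on log axes, with controls as circles and knockouts as triangles. In Lss and Idi1 the points of each genotype rise with Hmgcs1, Sqle rises with more scatter in the knockouts, and Insig1 shows no such order.

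Levels relative to Hmgcs1 in the same liver were looked at after the shared pattern of the enzymes had been seen, so they are a description, and all of them share the same denominator. The ratios are of CPM, which is not corrected for length, so they are read between livers and not as the relative abundance of the genes. The CPM of Fdps was 1.16, 1.24, 1.70 and 1.51 times that of Hmgcs1 in controls 1 to 4 and 0.767, 0.702, 0.691 and 1.15 times in knockouts 1 to 4. Fdft1 was 0.545, 0.681, 0.543 and 0.527 times Hmgcs1 in controls and 0.293, 0.355, 0.467 and 0.385 times in knockouts. The Fdps ratio of knockout 4 lay only just below that of control 1. Fdps and Fdft1 were thus lower against Hmgcs1 in every knockout than in any control, by 1.71-fold and 1.54-fold on average. Lss (1.39-fold) and Dhcr7 (1.44-fold) were so as well. Together these were 4 of 18 enzymes, beside 0.94% of all tested genes, and 0 were higher in every knockout than in any control, beside 0.436%. These shares are not a like comparison. The ratio of a gene that varies with Hmgcs1 within a group spreads less, so its groups separate more readily than those of most genes. None of the 30 ratios passed a two-sided exact permutation test with Benjamini-Hochberg adjustment over the 30 (smallest adjusted p = 0.214, at a smallest possible raw p of 0.0286). The median log2 difference of the 18 ratios was -0.48, and that of all tested genes was -0.36, since Hmgcs1 itself was higher on average in knockouts. The ratios of Nsdhl (1.69-fold) and Sqle (1.67-fold) were also lower on average in knockouts, with groups that overlapped. The ratio of Sc5d was level between the groups (log2 difference 0.00).

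Other genes of the pathway were read from a list of 44, of which 41 passed the filter. Gramd1c was the only gene of the list that passed the test, and it was lower in the knockouts (1 of 41, beside 1.21% of all tested genes called lower). It encodes Aster-C, a protein of the endoplasmic reticulum that carries cholesterol in from the plasma membrane. Gramd1c was at 15.9, 15.8, 13.4 and 13.0 CPM in controls and at 4.27, 3.402, 3.15 and 3.27 CPM in knockouts. The groups stood far apart, with a 4.12-fold lower level in knockouts (log2 fold change -2.04, SE 0.13, edgeR adjusted p = 0.00012, two-sided exact permutation p = 0.0286, the smallest possible). The gene (ENSMUSG00000036292.14) lies at chr16:43980350-44063345 on the minus strand, and no exon of another gene overlaps it in GENCODE M21.

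The other 40 tested genes of the list did not pass, with 20 above 0 and 20 below. Gramd1b, which encodes the related Aster-B, was at 1.08, 0.97, 1.81 and 1.43 CPM in controls and at 2.25, 2.57, 2.24 and 2.08 CPM in knockouts, above every control (log2 fold change 0.78, SE 0.23, edgeR adjusted p = 0.12). In TPM its groups overlapped, with control 3 at 0.86 and the knockouts at 0.58 to 0.79. Gramd1b had only 20 to 65 counts per liver, and its exons overlap genes on the other strand in GENCODE M21. Erlin2, a protein of the endoplasmic reticulum that takes part in the sterol-driven breakdown of HMG-CoA reductase, ranged from 32.3 to 34.1 CPM in controls and from 37.9 to 39.5 CPM in knockouts (log2 fold change 0.20, SE 0.06, edgeR adjusted p = 0.138). Por, the reductase that supplies electrons to Cyp51 and Sqle, was at 693.8, 955.9, 797.4 and 923.6 CPM in controls and at 508.9, 556.4, 773.4 and 421.9 CPM in knockouts. Knockout 3 lay within the range of the controls and the other knockouts below it (log2 fold change -0.58, SE 0.18, edgeR adjusted p = 0.139), and DESeq2 called it (adjusted p = 0.0397). At an unadjusted p below 0.05 were 6 of the 41 (14.6%), beside 18.5% of all genes. The difference between Gramd1c and Gramd1b in their response was not tested.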

How the data were processed

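RNA of 8 livers, 4 controls and 4 knockouts by the genotype in their labels, was sequenced as polyadenylated RNA with a stranded kit, as the protocols in the labels state. RSEM 1.2.22, STAR 2.5.1, Trimmomatic 0.36, Picard 1.84, DESeq2 and the build mm10 are named in the submitters' processing notes. The strand setting of the counting is not given in the sources used here. The deposited tables hold RSEM expected counts (estimated counts, in which reads that fit several genes are split) and the authors' TPM. Counts were not whole in all 8 livers for Acat2, Fdps and Idi1, in 5 for Tm7sf2, in 4 for Fdft1 and in 1 for Ggps1, so these share reads with other genes. Exons of Abcg5, Cyp51, Fdft1, Ggps1, Hmgcs1, Idi1, Lss, Scap, Npc1 and Abcg8 overlap a gene on the other strand, and those of Fdps, Nr1h3 and Tm7sf2 a gene on the same strand, in GENCODE M21, which matched all 55450 identifiers.

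Expected counts were rounded and fitted with edgeR 4.0.16 in R 4.3.3, with TMM, filterByExpr (minimum count 10, total 15) and the robust quasi-likelihood test, two-sided, adjusted by Benjamini-Hochberg over 13303 genes with a threshold of 0.05. Intervals at 95% and SEs come from that fit. Log2 CPM used a prior count of 2. Correlations used deviations from the group mean and all 576 arrangements of livers within groups. The steps were tested on simulated data. Alternatives were no filter, RLE factors, unscaled library sizes, DESeq2 1.42.0, a minimum of 1 CPM in 4 livers, limma-voom and limma-trend on log2(TPM + 1) with limma 3.58.1, no robust estimation, a replicate block, and livers left out singly or control 2 and knockout 4 together. Members and lists were chosen with earlier results of these data known. All members are named; full values were set for Srebf2, Hmgcs1, Sqle, Insig1, Nr1h3, Abcg5, Abcg8, called genes and the 4 largest changes, and for other pathway genes those called and the 3 with the smallest adjusted p. Of that list Idi2 and Npc1l1 were too low to test, and Faxdc2 was not matched by symbol. The other genes of the list are given as counts, and 1 result is not reported here.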

Additional observations from a re-analysis of the deposited data

Results flagged for a closer look

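Among the 62 groups of 4 livers examined (31 genes in each genotype), 2 held a liver far from the other 3, where chance flags about 1 group in 20. Ebp in knockout 4 was at 128.3 CPM, below the 173.8 to 176.3 CPM of the other knockouts. Scap in knockout 1 was at 107.1 CPM, above the 93.9 to 94.2 CPM of the other knockouts.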

How the results depend on the processing

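No setting but DESeq2 called any of the 31 genes. DESeq2 called 1 of them, Npc1 (log2 fold change -0.53, adjusted p = 0.0283). The edgeR adjusted p of Npc1 was 0.105, and its log2 fold change lay between -0.63 and -0.36 over the 18 alternatives. Over these alternatives 14 of the 31 genes kept their sign and 17 changed it in at least 1. Gramd1c was called in all 18, at -2.16 to -1.65, with adjusted p of at most 0.00125. The number of other pathway genes called was 1, and it was 2 with DESeq2, which added Por (log2 fold change -0.59), and 2 without control 2 and knockout 4 together. Leaving out 1 liver at a time gave 1 to 2, with 2 only without knockout 4.

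The median r of the 18 enzymes with Hmgcs1 was 0.860, 0.862 from log2(TPM + 1), and 0.838 to 0.898 with 1 liver left out. The number of the 30 relations passing was 16, 14 from log2(TPM + 1), and 0 to 10 with 1 liver left out. With the replicate number as a block, 0 of the 31 genes and 1 other pathway gene were called. Same-numbered livers deviated together with r of 0.21, 0.01, -0.02 and -0.07, and the pairing was not used. Over all genes, edgeR called 113 higher and 161 lower, 161 and 115 with library size alone, 151 and 86 on TPM, 78 and 98 with the block, and 384 and 453 with DESeq2. With 1 liver left out, 108 (knockout 2) to 372 (knockout 4) were called. The lowest value of the 31 genes in any liver was 100 counts, in Mvd, where counting error weighs most.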
